A study of Mus musculus with 9 samples.

Results

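The genes described here are 33 genes of the endoplasmic reticulum (ER) chaperone machinery and the unfolded protein response, chosen by name, and 32 of them were measured among the 22180 genes tested. A gene entered where a feature of the deposited table carried its symbol and no other. Of several such features, that with the highest mean was used. The feature of Pdia4 also carries the symbol of a microRNA gene, so Pdia4 was not analysed here.

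The arrays came from TAMH cells, a mouse hepatocyte line derived from the liver of mice carrying a transforming growth factor alpha transgene, so every group shares that background and 1 line stands for hepatocytes. Cells were kept for 9 h in medium alone (control), in diquat at 18 µM or in paraquat at 126 µM, with 3 arrays a group. All groups were grown in the same medium with dexamethasone, nicotinamide, gentamicin, insulin, transferrin and selenium. Diquat and paraquat are bipyridylium herbicides that take up an electron inside cells and pass it to oxygen, which yields superoxide. Their doses differ, and both are set against the same control arrays, so the values of the 2 comparisons are given side by side. Each treatment was given to 3 dishes according to the labels, which do not call them separate cultures. The p-values therefore measure how far these samples spread, and that spread may be technical. In bulk samples such as these, fewer cells of a type and less RNA per cell cannot be told apart.

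Secreted and membrane proteins enter the ER, where Hsp70 and Hsp90 family chaperones, disulfide isomerases and lectins fold them, and proteins that fail to fold are sent back to the cytosol for degradation. When unfolded proteins build up, 3 membrane sensors respond. IRE1 (encoded by Ern1) splices the mRNA of the transcription factor XBP1, ATF6 is cut to release a transcription factor, and PERK (Eif2ak3) phosphorylates eIF2α, which slows protein synthesis and lets ATF4 be translated. XBP1 and the ATF6 fragment raise the genes of chaperones, isomerases and ER-associated degradation, while ATF4 raises genes of amino acid supply and redox control and can also be reached through other eIF2α kinases. Hepatocytes secrete most plasma proteins and hold a large ER. The arrays measured total transcript levels, so XBP1 splicing, ATF6 cleavage and eIF2α phosphorylation were not measured.

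The mRNAs of 2 sensors rose under each compound, while no chaperone, isomerase, lectin or degradation gene of the set rose. Against control, diquat gave 2 higher genes (Atf6 and Ern1) and 6 lower ones (Sdf2l1, P4hb, Pdia5, Pdia6, Xbp1 and Edem2) of 32, at limma's Benjamini-Hochberg adjusted p under 0.05. Among all genes tested, 4.13% were higher and 2.89% lower by the same rule, and diquat changed 7.02% in either direction. Paraquat gave 2 higher genes (Atf6 and Ern1) and 5 lower ones (Sdf2l1, P4hb, Pdia5, Edem1 and Edem2), where 2.33% of all genes were higher and 2.24% lower, 4.57% in all. At an unadjusted p under 0.05, 15 of the 32 genes passed in each comparison, against 21.6% and 15% of all genes. The largest change was 1.31-fold for diquat and 1.35-fold for paraquat, and the median log2 change over the 32 genes was -0.07 in each comparison, against -0.02 and 0.00 over all genes. Relative to control, 23 of the 32 genes lay below 0 and 8 above under diquat, and 26 below and 6 above under paraquat. Of all 22180 genes, 12729 lay below 0 and 9094 above under diquat, and 11215 below and 10456 above under paraquat.

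Changes of this size are small, and some calls depend on single arrays. Tested against a fold of at least 1.2, limma called 0 of the 32 genes in either comparison, with 4 genes under diquat and 1 under paraquat at an unadjusted p under 0.05. The diquat count of 8 lay between 7 and 9 when any 1 array was left out, and it was 9 without diquat replicate 3, the array farthest from its group. The paraquat count of 7 fell to 3 without control replicate 1, control replicate 3 or paraquat replicate 2, and to 4 without control replicate 2 or paraquat replicate 3. With the arrays centred on their medians it was 4, namely 2 higher and 2 lower genes.

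**Figure D1:**
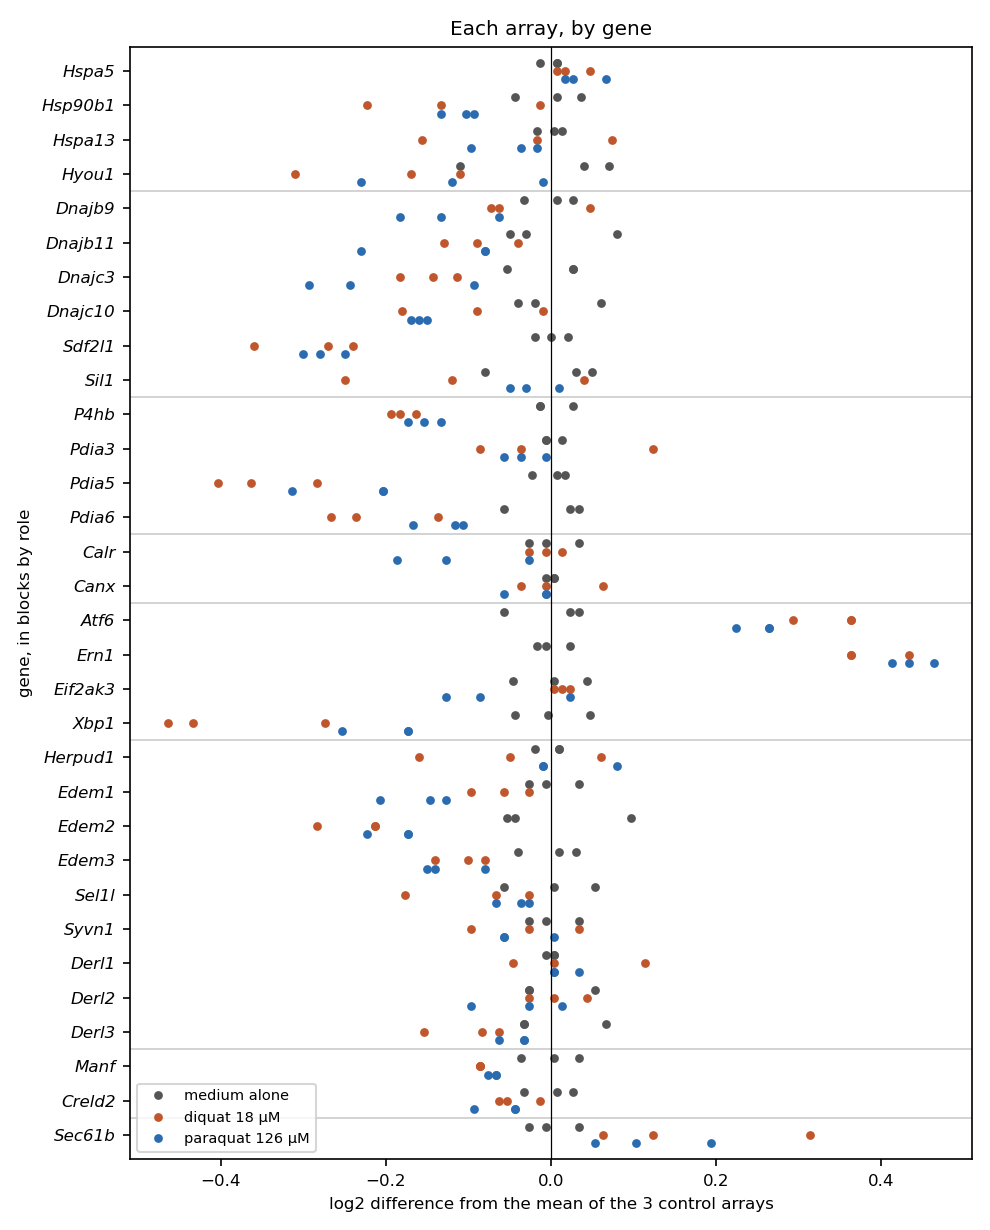
Log2 difference of each array from the mean of the 3 control arrays (horizontal axis) for the 32 genes (vertical axis, in blocks by role), with a point per array, grey for medium alone, orange for diquat 18 µM and blue for paraquat 126 µM. Atf6 and Ern1 lie to the right of all control points on every treated array, and Sdf2l1, P4hb, Pdia5, Pdia6, Xbp1 and Edem2 lie to the left.

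**Figure D2:**
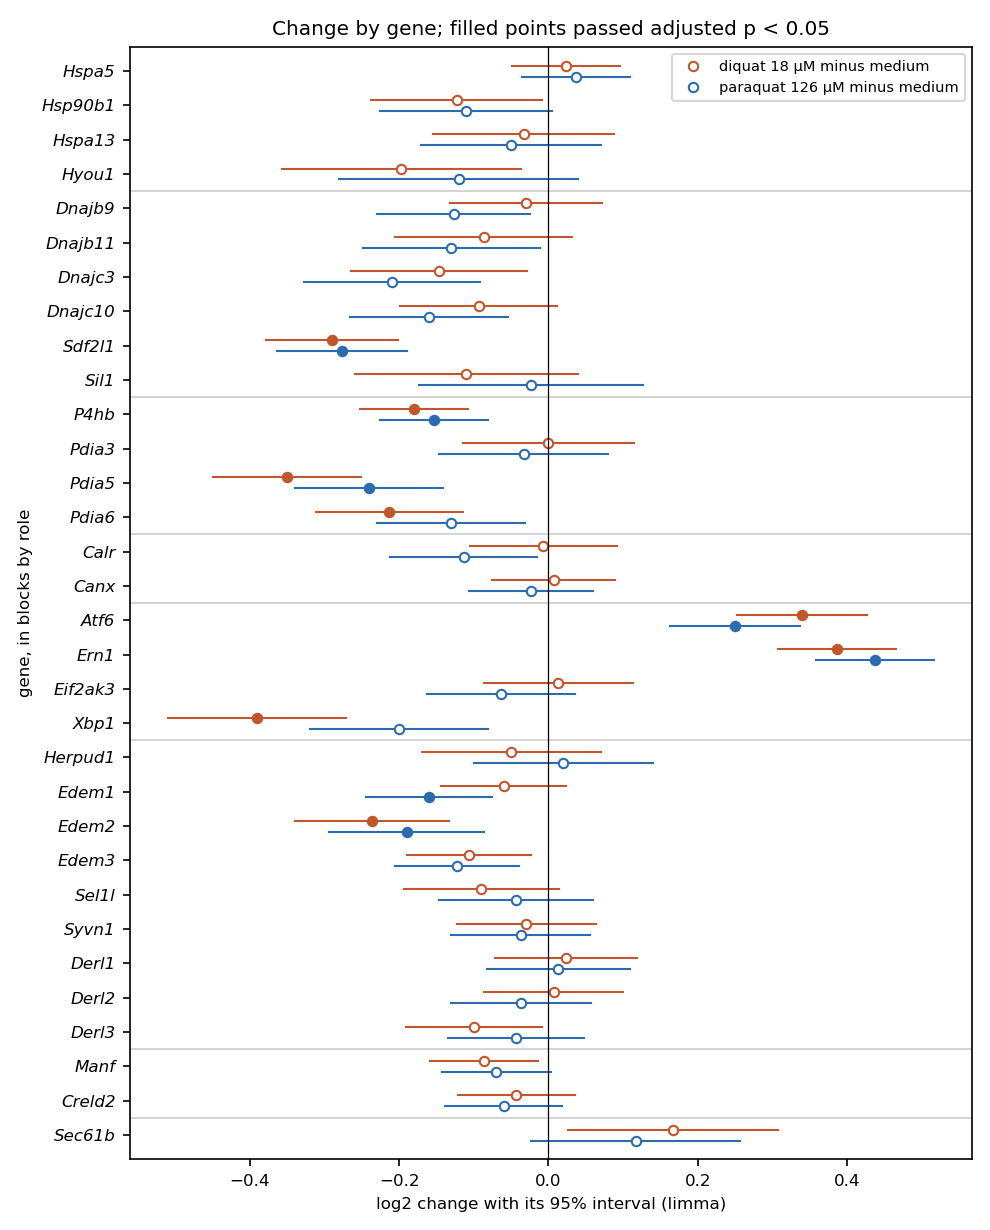
Log2 change with its 95% interval from limma (horizontal axis) for the 32 genes (vertical axis), orange for diquat minus control and blue for paraquat minus control, with filled points where the adjusted p was under 0.05. Filled points on the right are Atf6 and Ern1 only, and Hspa5 sits at 0.02 and 0.04.

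Among the sensors, Ern1, which encodes the kinase and endoribonuclease IRE1α, stood at log2 levels of 9.35, 9.32 and 9.31 on the control arrays. It stood at 9.69, 9.69 and 9.76 under diquat and at 9.76, 9.79 and 9.74 under paraquat. Every treated array was above every control array, with a gap wider than the spread within any group. Ern1 rose by 0.39 ± 0.04 (log2, SE, n = 3 each, limma adjusted p = 0.000175) under diquat, a 1.31-fold change. Under paraquat it rose by 0.44 ± 0.04 (adjusted p = 8.65e-05), a 1.35-fold change.

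Atf6, the gene of the membrane-bound transcription factor, stood at 9.74, 9.75 and 9.66 on the control arrays, at 10.08, 10.01 and 10.08 under diquat and at 9.98, 9.94 and 9.98 under paraquat. The groups did not overlap. Atf6 rose by 0.34 ± 0.04 (log2, SE, n = 3 each, limma adjusted p = 0.00065) under diquat, or 1.27-fold, and by 0.25 ± 0.04 (adjusted p = 0.00497) under paraquat, or 1.19-fold. Both Ern1 and Atf6 passed in each comparison whichever array was left out and under every other alternative apart from the test against a fold of 1.2. The third sensor, Eif2ak3, lay at 8.44 to 8.53 on the control arrays, at 8.49 to 8.51 under diquat and at 8.36 to 8.51 under paraquat. Its changes were 0.01 (95% interval -0.09 to 0.11) and -0.06 (-0.16 to 0.04), and its groups overlapped.

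Xbp1 encodes the transcription factor downstream of IRE1 and moved opposite to Ern1. Its control arrays read 11.06, 11.01 and 10.97, the diquat arrays 10.55, 10.58 and 10.74, and the paraquat arrays 10.84, 10.84 and 10.76. All 6 treated arrays were below all 3 controls, and diquat replicate 3 lay closer to the controls than its group mates. Xbp1 fell by 0.39 ± 0.05 (log2, SE, n = 3 each, limma adjusted p = 0.00195) under diquat, a 1.31-fold decrease. Under paraquat the difference was -0.20 (adjusted p = 0.0686), which missed the threshold with all arrays and passed without diquat replicate 3 (adjusted p = 0.0176) or with quantile normalization (0.0141). Between the compounds Xbp1 differed by 0.19, the widest gap among the 32 genes, with an unadjusted p of 0.00517 and an adjusted p of 0.349.

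**Figure D3:**
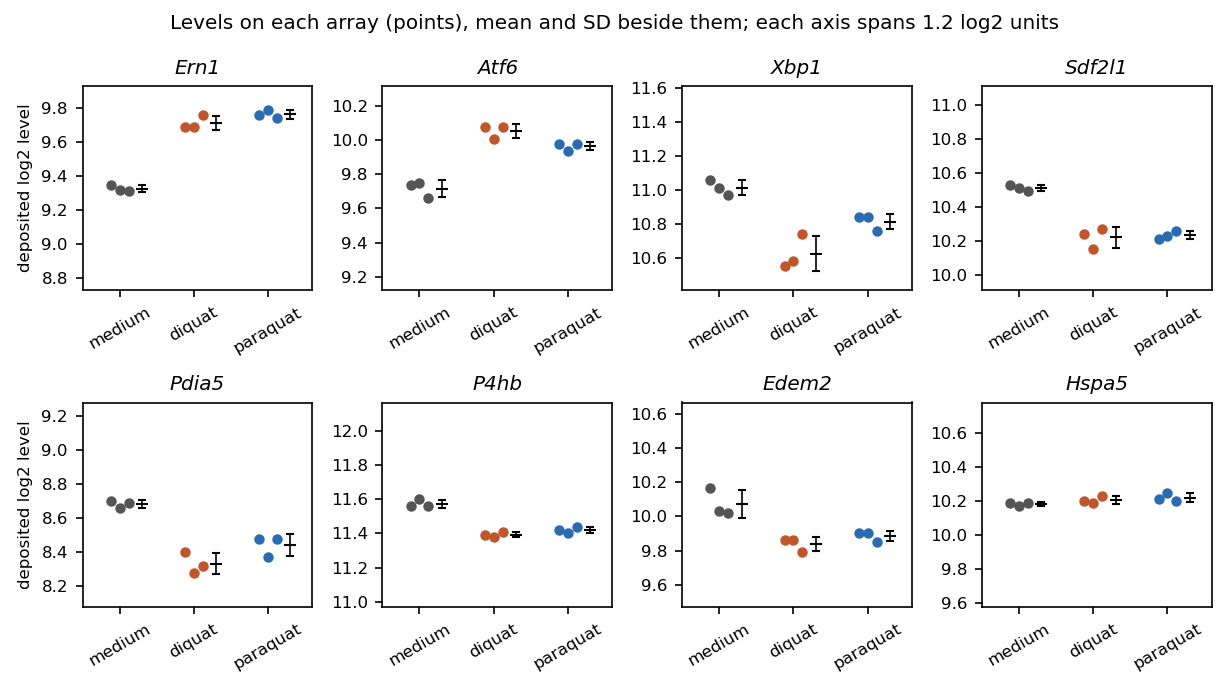
Deposited log2 level on each array (vertical axis, points) for 8 genes in medium, diquat and paraquat (horizontal axis), with the group mean and SD as a black bar beside the points (n = 3), on axes of equal span. Ern1 and Atf6 step up, Xbp1, Sdf2l1, Pdia5, P4hb and Edem2 step down, and the 9 arrays of Hspa5 stay between 10.17 and 10.25.

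The chaperones of the Hsp70 and Hsp90 families did not pass the test in either comparison. Hspa5, which encodes BiP, the Hsp70 of the ER lumen and the gene most used as a readout of ER stress, read 10.19, 10.17 and 10.19 in control, 10.20, 10.19 and 10.23 under diquat and 10.21, 10.25 and 10.20 under paraquat. Its changes were 0.02 (95% interval -0.05 to 0.10, limma adjusted p = 0.726) and 0.04 (-0.04 to 0.11, adjusted p = 0.729), so the upper bounds allow a rise of 0.10 and 0.11 on the log2 scale. The diquat arrays touched the control range and the paraquat arrays lay just above it. Hsp90b1, the gene of GRP94, lay at 11.69 to 11.77 in control, 11.51 to 11.72 under diquat and 11.60 to 11.64 under paraquat. Its changes were -0.12 (adjusted p = 0.202) and -0.11 (adjusted p = 0.36), and the first passed without diquat replicate 3 (-0.18, adjusted p = 0.0418). Hyou1, a large Hsp70-like exchange factor for BiP, gave -0.20 (adjusted p = 0.147) and -0.12 (adjusted p = 0.528), and Hspa13, a small ER-associated Hsp70, gave -0.03 and -0.05.

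Among 6 cochaperones of BiP, Sdf2l1 was the only one past the test with all arrays. SDF2L1 acts with the J-protein ERdj3 (Dnajb11) to keep BiP substrates soluble. Sdf2l1 read 10.53, 10.51 and 10.49 in control, 10.24, 10.15 and 10.27 under diquat and 10.21, 10.23 and 10.26 under paraquat. The treated arrays were all below the controls by more than the spread within any group. It fell by 0.29 ± 0.04 (log2, SE, n = 3 each, limma adjusted p = 0.00188) under diquat, or 1.22-fold, and by 0.28 ± 0.04 (adjusted p = 0.00319) under paraquat, or 1.21-fold. These calls held whichever array was left out.

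The J-protein genes, whose products hand substrates to BiP and drive its ATP cycle, all had estimates below 0. Dnajc3, the gene of p58IPK, read 10.09, 10.01 and 10.09 in control, 9.92, 9.88 and 9.95 under diquat and 9.97, 9.77 and 9.82 under paraquat. Treated and control arrays did not overlap, and its differences were -0.15 (limma adjusted p = 0.142) and -0.21 (adjusted p = 0.0542). The paraquat value passed without paraquat replicate 1 (-0.27, adjusted p = 0.0112). Dnajc10, a J-protein that also reduces disulfides, gave -0.09 (adjusted p = 0.293) and -0.16 (adjusted p = 0.104), with all paraquat arrays below all controls. Dnajb9 gave -0.03 and -0.13, and Dnajb11 gave -0.09 and -0.13. Sil1, a nucleotide exchange factor for BiP, gave -0.11 and -0.02, with overlapping arrays in each comparison.

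Protein disulfide isomerases form and rearrange disulfide bonds in the ER, and 3 of the 4 measured fell under diquat and 2 under paraquat. P4hb, the gene of the founding member PDI, read 11.56, 11.60 and 11.56 in control, 11.39, 11.38 and 11.41 under diquat and 11.42, 11.40 and 11.44 under paraquat. All treated arrays were below all controls. P4hb fell by 0.18 ± 0.03 (log2, SE, n = 3 each, limma adjusted p = 0.009) and by 0.15 ± 0.03 (adjusted p = 0.0242). With the arrays centred on their medians the adjusted p of P4hb was 0.0649 and 0.0764. The paraquat call of P4hb was lost without any 1 of the control or paraquat arrays, with adjusted p between 0.0583 and 0.107.

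Pdia5 had the largest decrease of the isomerases. It read 8.70, 8.66 and 8.69 in control, 8.40, 8.28 and 8.32 under diquat and 8.48, 8.37 and 8.48 under paraquat, with no overlap between treated and control arrays. Pdia5 fell by 0.35 ± 0.05 (log2, SE, n = 3 each, limma adjusted p = 0.00127) under diquat, or 1.27-fold, and by 0.24 ± 0.05 (adjusted p = 0.013) under paraquat, or 1.18-fold. The paraquat call of Pdia5 was lost without control replicate 1 (adjusted p = 0.0617), control replicate 3 (0.0505) or paraquat replicate 2 (0.0533).

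Pdia6, whose product acts with BiP and can inactivate IRE1, read 9.59, 9.60 and 9.51 in control, 9.43, 9.33 and 9.30 under diquat and 9.40, 9.46 and 9.45 under paraquat. Treated and control arrays did not overlap. Pdia6 fell by 0.21 ± 0.04 (log2, SE, n = 3 each, limma adjusted p = 0.0184) under diquat, and the call was lost without control replicate 1 (adjusted p = 0.0746) or control replicate 2 (0.0827). Under paraquat its difference was -0.13 (adjusted p = 0.17). Pdia3, the isomerase that works with the lectins on glycoproteins, gave 0.00 (adjusted p = 1) and -0.03 (adjusted p = 0.872), with a wider spread under diquat (11.70 to 11.91) than in control (11.78 to 11.80).

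The lectin chaperones hold glycoproteins while they fold, and neither passed. Canx, the membrane-bound calnexin, lay between 12.09 and 12.21 on all 9 arrays, with changes of 0.01 and -0.02. Calr, the luminal calreticulin, read 11.27, 11.25 and 11.31 in control and 11.27, 11.25 and 11.29 under diquat, which is nearly the same set of values, and 11.25, 11.09 and 11.15 under paraquat. Its changes were -0.01 (limma adjusted p = 0.95) and -0.11 (adjusted p = 0.239).

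Of 9 genes of ER-associated degradation, which recognises misfolded proteins and moves them to the cytosol, Edem2 fell under diquat, and Edem1 and Edem2 fell under paraquat. The EDEM proteins trim mannose from misfolded glycoproteins and so mark them for removal. Edem2 read 10.17, 10.03 and 10.02 in control, 9.86, 9.86 and 9.79 under diquat and 9.90, 9.90 and 9.85 under paraquat. All treated arrays were below the lowest control, and control replicate 1 stood above its group mates. Edem2 fell by 0.24 ± 0.05 (log2, SE, n = 3 each, limma adjusted p = 0.0141) under diquat, a call that held whichever array was left out but not in a fit of the 2 groups alone (adjusted p = 0.0508). Under paraquat Edem2 fell by 0.19 ± 0.05 (adjusted p = 0.0485), and that call was lost without any 1 of the control arrays, any 1 of the paraquat arrays, diquat replicate 1 or diquat replicate 2, with adjusted p between 0.0593 and 0.176.

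Edem1 read 10.68, 10.64 and 10.62 in control, 10.59, 10.55 and 10.62 under diquat and 10.52, 10.50 and 10.44 under paraquat. The paraquat arrays were all below the controls, while diquat replicate 3 equalled the lowest control. Edem1 fell by 0.16 ± 0.04 (log2, SE, n = 3 each, limma adjusted p = 0.0396) under paraquat, and this call was lost without any 1 of the control arrays, any 1 of the paraquat arrays or diquat replicate 1, with adjusted p between 0.0588 and 0.164. It rests on 1 of the gene's 2 features: with their mean the change was -0.07 (adjusted p = 0.431). Under diquat Edem1 gave -0.06 (adjusted p = 0.398), and Edem3 gave -0.11 (adjusted p = 0.13) and -0.12 (adjusted p = 0.112), with no overlap between treated and control arrays.

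The genes of the membrane complex that extracts these proteins did not pass. Sel1l, the adaptor of the ubiquitin ligase HRD1, gave -0.09 and -0.04, and Syvn1, which encodes HRD1, gave -0.03 and -0.04. Derl1 and Derl2, which encode channel-like derlins, gave 0.02 and 0.01 under diquat and 0.01 and -0.04 under paraquat. Herpud1, an adaptor of the same complex that is itself raised in ER stress, read 10.59, 10.59 and 10.56 in control, 10.53, 10.64 and 10.42 under diquat and 10.66, 10.57 and 10.57 under paraquat. Its changes were -0.05 (limma adjusted p = 0.641) and 0.02 (adjusted p = 0.937). Derl3 lay between 5.83 and 6.05, close to the array medians of 5.95 to 6.04, where a level cannot be separated from background.

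Manf and Creld2 encode small ER proteins that can be secreted in ER stress. Manf read 7.35, 7.38 and 7.31 in control and 7.26 on each of the 3 diquat arrays, and 7.28, 7.28 and 7.27 under paraquat, so that treated and control arrays did not overlap. Its differences of -0.09 (limma adjusted p = 0.158) and -0.07 (adjusted p = 0.355) did not pass. Creld2 gave -0.04 and -0.06. Sec61b, a subunit of the channel through which proteins enter the ER, read 5.96, 5.92 and 5.90 in control. On the treated arrays it read between 5.98 and 6.24, near the array medians like Derl3. Its differences of 0.17 (adjusted p = 0.16) and 0.12 (adjusted p = 0.456) did not pass.

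Counting arrays in place of p-values, 3 of the 32 genes had all diquat arrays above all control arrays and 10 had all below, where 10.1% and 11.2% of all genes did so. For paraquat 4 genes were above and 15 below, against 9.05% and 10.4% of all genes. In the mean score per array, which averages each gene's distance from its control mean on the log2 scale, the 32 genes stood at 0.01, 0.01 and -0.02 in control. The score was -0.06, -0.10 and -0.04 under diquat (mean -0.07 ± 0.03, SD, n = 3) and -0.04, -0.08 and -0.07 under paraquat (mean -0.06 ± 0.02). All 6 treated scores lay below the control scores, while the mean score over all genes was -0.01 and 0.00. With arrays centred on their medians the diquat score was -0.03. By role, the isomerases scored -0.19 and -0.14, the cochaperones -0.13 and -0.15, and the 4 sensor and Xbp1 genes 0.09 and 0.11.

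**Figure D4:**
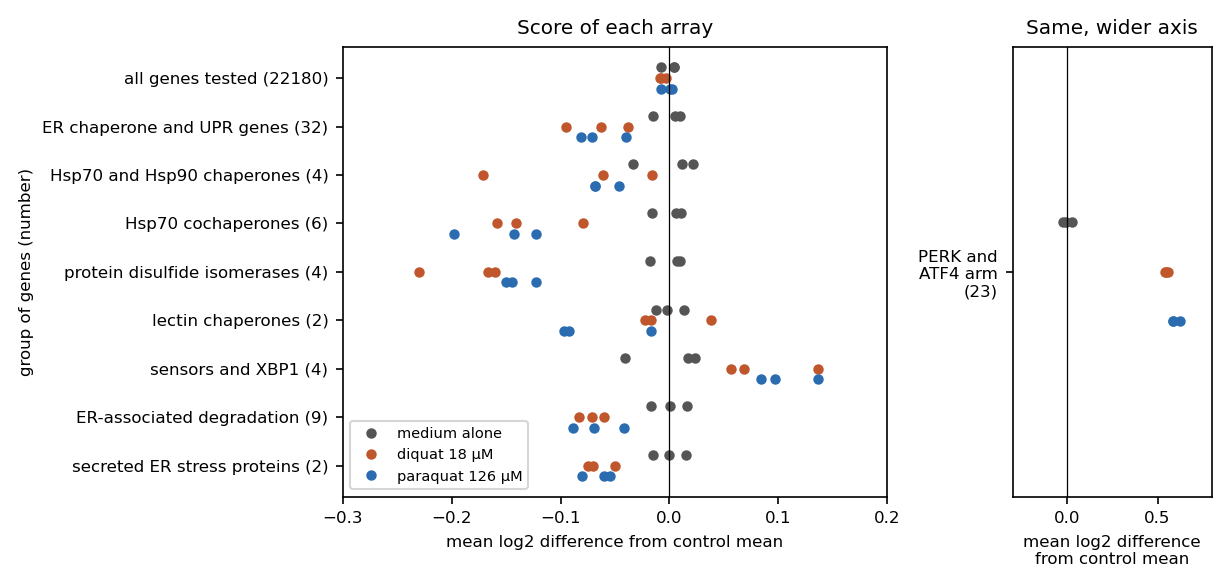
Score of each array (horizontal axis, mean log2 difference from the control mean) for all genes, the 32 genes and their groups by role (vertical axis, number of genes in brackets), with a point per array in grey (medium alone), orange (diquat) or blue (paraquat), and the PERK and ATF4 arm on a wider axis at the right. The isomerases and cochaperones lie left of the controls, the group of sensors and Xbp1 to the right, and the PERK and ATF4 arm near 0.55 and 0.60.

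The arm of the response that runs through ATF4 was described from a separate list of 23 measured genes, none of them among the 32. This list was chosen with earlier results of these data known, so its counts are a description. Of the 23 genes, 18 rose and 0 fell in each comparison by limma (19 and 20 had an unadjusted p under 0.05). Median log2 changes were 0.35 under diquat and 0.47 under paraquat. Among all genes, 4.13% rose under diquat and 2.33% under paraquat, and 21.6% and 15% had an unadjusted p under 0.05. Tested against a fold of at least 1.2, 11 of the 23 rose in each, against 94 and 76 of all 22180 genes. Ddit3, the gene of the transcription factor CHOP, read 8.12, 8.09 and 8.02 in control, 8.86, 8.92 and 8.85 under diquat and 9.21, 9.16 and 9.13 under paraquat. It rose by 0.80 ± 0.04 (log2, SE, n = 3 each, limma adjusted p = 3.4e-06) and by 1.09 ± 0.04 (adjusted p = 6.7e-07). No array of one group overlapped another.

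Other genes of this list rose as well, and whether ATF4 raised them was not tested. Atf4 itself rose 1.51-fold under diquat and 1.55-fold under paraquat, Atf3, a transcription factor, 1.90-fold and 2.22-fold, and Chac1, a glutathione-degrading enzyme, 2.05-fold and 2.25-fold. Ppp1r15a, the gene of GADD34, which reverses eIF2α phosphorylation, rose 1.27-fold and 1.39-fold. Slc7a11, the cystine importer, went from 7.71, 7.45 and 7.80 in control to 10.20, 10.29 and 10.33 under diquat and to 10.12, 10.02 and 10.02 under paraquat. Its changes of 6.15-fold and 5.28-fold (log2 2.62 and 2.40) served as the check that the treatments acted. Slc7a11 has 2 features, and under the 19 alternative settings its log2 changes went as low as 1.71 and 1.56. None of these 6 genes had overlapping treated and control arrays. Hspa5, Herpud1 and Dnajb9 had no call in either comparison. By arrays, all 3 overlapped the controls under diquat. Under paraquat Herpud1 overlapped, while Hspa5 lay above all controls and Dnajb9 below them.

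Further ER genes were taken from 7 lists by function, and their counts stand beside the 4.13% higher and 2.89% lower of all genes for diquat and the 2.33% and 2.24% for paraquat. Several lists held only 1 or 2 calls, and some of these were lost when 1 array was left out. Of 26 genes of N-glycosylation and glycan quality control, 7 fell under diquat and 4 under paraquat, and 0 rose by limma in either. Magt1, a subunit of an oligosaccharyltransferase, read 10.22, 10.18 and 10.24 in control, 9.97, 9.90 and 9.89 under diquat and 10.00, 10.02 and 9.90 under paraquat, and it fell 1.23-fold and 1.18-fold. Mlec, an ER lectin, fell 1.21-fold and 1.14-fold, the latter call lost without any 1 control or paraquat array or diquat replicate 1 (adjusted p from 0.0506 to 0.142) and with centred arrays (0.0803). Alg8, a glucosyltransferase of the glycan precursor, fell 1.21-fold under diquat. The diquat count of 7 was 3 without control replicate 1 or with arrays centred on their medians, and 4 without control replicate 2 or diquat replicate 1. Without diquat replicate 2 there were 4 lower and 2 higher genes, and the paraquat count of 4 was 1 to 2 without any 1 control or paraquat array.

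Among 16 genes of ER redox and disulfide chemistry, Ero1a, the oxidase that recharges PDI, rose and Txndc11, a thioredoxin-domain protein, fell in both comparisons. Ero1a read 10.00, 10.01 and 10.02 in control, 10.36, 10.28 and 10.36 under diquat and 10.33, 10.29 and 10.25 under paraquat, and it rose 1.25-fold and 1.21-fold. Treated and control arrays did not overlap, and P4hb, which encodes its substrate PDI, fell in both comparisons. Txndc11 fell 1.33-fold and 1.27-fold. Gpx8, an ER peroxidase, fell 1.23-fold under paraquat (log2 -0.30, limma adjusted p = 0.0045) and gave -0.13 (adjusted p = 0.134) under diquat.

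Of 19 further degradation genes, 1 rose and 2 fell under diquat, and 1 rose and 1 fell under paraquat. Herpud2 rose 1.19-fold and 1.15-fold, Os9, a lectin that delivers trimmed glycoproteins to HRD1, fell by 0.26 and 0.18 on the log2 scale, and Selenos, a selenoprotein of the same complex, fell by 0.27 under diquat. The paraquat call of Os9 was lost without any 1 control or paraquat array (adjusted p from 0.056 to 0.122), that of Herpud2 without control replicate 1 (0.0504), and the diquat call of Selenos without control replicate 1 (0.0526). With the mean of its features Selenos gave -0.11 (adjusted p = 0.231). Of 26 folding and calcium proteins, 4 fell under diquat and 2 under paraquat, including Fkbp2 and Nucb2 in both and Fkbp14 under diquat, with changes of 1.14-fold to 1.21-fold. The diquat count of 4 was 0 without control replicate 2, 1 without control replicate 1 and 2 without control replicate 3 or any 1 diquat array. The paraquat count of 2 was 1 without any 1 control array or paraquat replicate 2, 4 without diquat replicate 2 and 5 without diquat replicate 3.

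The remaining lists held few calls. Of 21 vesicle transport genes linked to XBP1, Sec24d and Lman2 fell 1.23-fold and 1.14-fold under diquat and Sec23b fell 1.12-fold under paraquat. The call of Lman2 was lost without any 1 array other than control replicate 3 (adjusted p from 0.0558 to 0.167). That of Sec23b was lost without any 1 control or paraquat array (from 0.0621 to 0.146). Of 23 genes of translocation and signal peptide cleavage, 0 passed under diquat by limma (6 at an unadjusted p under 0.05) and Tram2 fell 1.26-fold under paraquat. The diquat count was 1 without control replicate 3 and 4 without diquat replicate 3. Of 17 further regulators, Tmbim6 fell 1.11-fold under diquat (adjusted p = 0.0498) and Ppp1r15b, a constitutive partner of the eIF2α phosphatase, rose 1.11-fold under paraquat (adjusted p = 0.0362). Leaving out any 1 control array, any 1 paraquat array or diquat replicate 1 ended both calls, as diquat replicate 2 did for Tmbim6. The diquat count of 1 was 3, all higher, without diquat replicate 2, and 2 without diquat replicate 3.

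**Figure D5:**
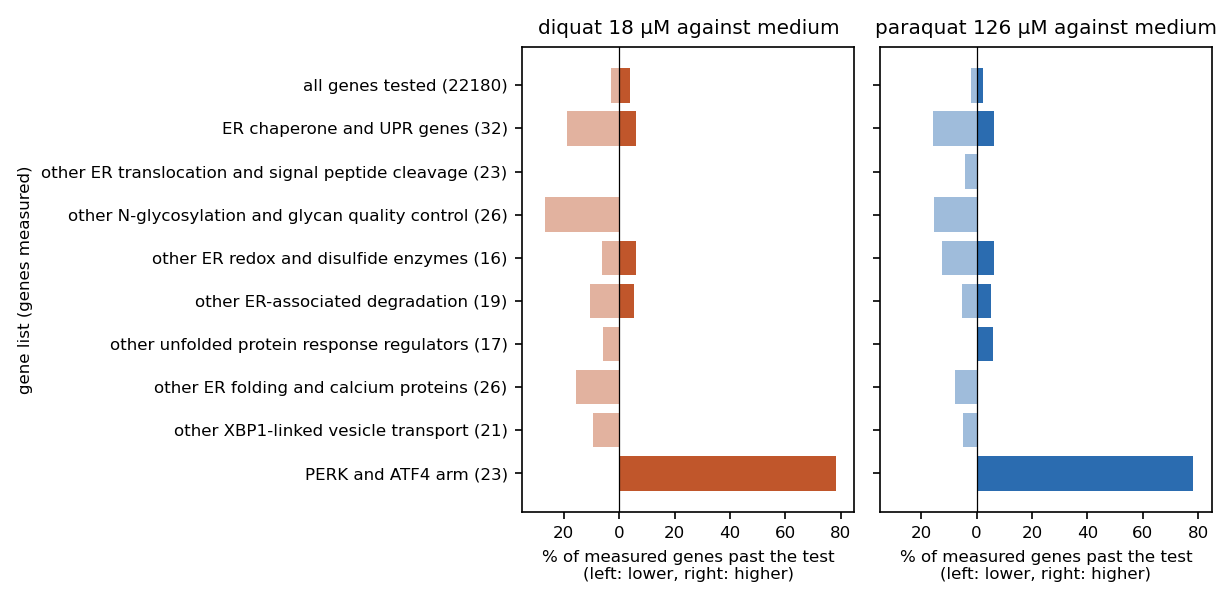
Percent of measured genes past the test (horizontal axis, lower to the left in a pale shade and higher to the right in a full shade) for all 22180 genes, the 32 genes, the 7 further ER lists and the PERK and ATF4 arm (vertical axis, number measured in brackets), with diquat in the left panel and paraquat in the right. In the PERK and ATF4 arm 78.3% of genes were higher in each panel, while the 32 genes show 6.2% higher in each and 18.8% and 15.6% lower.

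The promoters of these genes were read because the ER stress response element (ERSE) is the site through which ATF6 and XBP1 act on chaperone genes. The element is CCAAT, 9 unspecified bases, then CCACG. RefSeq windows of 300 bases, from 250 before to 50 after the annotated start (mouse build GRCm38.p6), were found for 27 of the 33 genes, of which 26 were measured. Derl2 has 2 windows, which makes 28. On either strand, 9 of the 28 windows, of 9 genes, held an ERSE (32.1%), against 39 of all 32851 windows (0.12%). The genes were chosen by name as genes of this response, so these shares are a description and no test. The 9 genes are Hspa5, Hsp90b1, Calr, Canx, Pdia6, Dnajc3, Creld2, Syvn1 and Derl3, and Hsp90b1 has 2 copies. The elements of 5 of them are shown because these include the classical chaperone targets and Pdia6, the only one of the 9 genes called. Each is written 5′ to 3′ on the strand that carries it, with the CCAAT and CCACG parts in capitals. In the order shown they lie in Calr at chr8:84847075-84847093 (plus strand), Hsp90b1 at chr10:86705638-86705656 (minus strand), Hsp90b1 at chr10:86705533-86705551 (plus strand), Canx at chr11:50325800-50325818 (minus strand), Pdia6 at chr12:17266491-17266509 (plus strand) and Dnajc3 at chr14:118937827-118937845 (plus strand).
Calr: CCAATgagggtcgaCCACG
Hsp90b1: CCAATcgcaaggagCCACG
Hsp90b1: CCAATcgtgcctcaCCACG
Canx: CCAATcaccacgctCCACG
Pdia6: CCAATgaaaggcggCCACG
Dnajc3: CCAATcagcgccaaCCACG

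Whole windows are shown for 3 genes, because Hspa5 has the element and did not pass, Sdf2l1 fell and has its parts without the spacing, and Ern1 rose and has neither the element nor CCAAT. The windows are chr2:34771840-34772139 on the plus strand for Hspa5, chr16:17132334-17132633 on the minus strand for Sdf2l1 and chr11:106487747-106488046 on the minus strand for Ern1. Capitals mark CCAAT and CCACG, or ATTGG and CGTGG where these stand on the other strand.
Hspa5: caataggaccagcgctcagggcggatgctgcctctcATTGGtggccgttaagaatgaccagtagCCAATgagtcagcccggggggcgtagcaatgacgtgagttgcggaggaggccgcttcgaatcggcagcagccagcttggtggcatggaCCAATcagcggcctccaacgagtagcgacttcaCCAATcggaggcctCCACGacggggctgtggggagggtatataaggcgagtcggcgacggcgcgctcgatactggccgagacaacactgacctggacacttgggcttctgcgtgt
Sdf2l1: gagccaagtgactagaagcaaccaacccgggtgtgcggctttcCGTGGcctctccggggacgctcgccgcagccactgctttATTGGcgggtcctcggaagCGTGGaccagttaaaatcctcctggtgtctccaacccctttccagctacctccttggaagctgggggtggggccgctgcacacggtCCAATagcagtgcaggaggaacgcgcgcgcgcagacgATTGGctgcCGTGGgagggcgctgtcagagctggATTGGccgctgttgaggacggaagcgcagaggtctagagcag
Ern1: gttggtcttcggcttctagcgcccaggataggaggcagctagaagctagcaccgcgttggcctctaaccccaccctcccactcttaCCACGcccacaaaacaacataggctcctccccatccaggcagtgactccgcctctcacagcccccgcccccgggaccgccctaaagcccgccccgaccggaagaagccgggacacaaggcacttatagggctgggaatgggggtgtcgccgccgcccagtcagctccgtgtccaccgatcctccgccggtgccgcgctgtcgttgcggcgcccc

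In the window of Hspa5 the element starts 65 bases before the start site and ends 47 bases before it, at chr2:34772025-34772043. The window holds CCAAT 4 times and CCACG once, both parts of the element included. That of Sdf2l1 holds CCAAT 4 times and CCACG 3 times, and that of Ern1 holds CCACG once. CCAAT alone stands in 37.41% of all windows and CCACG alone in 32.77%. Of the 28 windows, 0 held TGACGTGG, a core of the unfolded protein response element bound by XBP1 and ATF6, which 0.68% of all windows hold. TGATGNAA, a core of the ATF4 site, stands in 3.97% of all windows and in that of Herpud1 among these genes.

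Set against expression, of the 9 measured genes with an ERSE 0 rose and 1 (Pdia6) fell under diquat, and 0 passed under paraquat by limma, with 4 and 3 at an unadjusted p under 0.05. Of the 17 measured genes whose window held no ERSE, 1 rose and 5 fell under each compound. Only exact matches with 9 bases between the parts counted as an ERSE, so other spacings or letters were not seen. Herpud1 is counted among the 17. Its window holds CCAAT on the other strand 52 to 48 bases before the start, and CCACG 46 to 42 before. Across all tested genes, 29 had an ERSE in their window, and of these 0 rose and 1 fell under diquat (6 at an unadjusted p under 0.05) and 0 passed under paraquat (5 at an unadjusted p under 0.05). Their median log2 changes were -0.04 and -0.03. Of the 16961 tested genes whose windows held no ERSE, 4.16% rose and 2.84% fell under diquat, and 2.35% and 2.29% under paraquat. Counts this low among 9 or 29 genes cannot be told apart from these shares. Whether genes with and without the element differed was not tested, and a match of letters is a description of the window only.

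The compounds were also compared with each other, at unequal doses. By limma 0 of the 32 genes and 0 of all genes (0%) passed for paraquat minus diquat, with 5 of the 32 and 10.7% of all genes at an unadjusted p under 0.05. All paraquat arrays lay above all diquat arrays for 2 of the 32 genes and below them for 2, against 5.36% and 5.18% of all genes. The differences ran from -0.11 (Calr) to 0.19 (Xbp1), with a median of -0.01. For Ern1 the difference was 0.05 (95% interval -0.03 to 0.13), for Atf6 -0.09 (-0.18 to 0.00), for Sdf2l1 0.01 (-0.07 to 0.10), and for Hspa5 0.01 (-0.06 to 0.09). These intervals leave room for differences of the size given, so they do not show that the compounds act alike on these genes.

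The label of the cells was checked against markers. Of 14 hepatocyte markers 13 were measured, Alb stood at 12.73 in each group and the dimmest, Asgr1, at 5.65, below the array medians. The mean level of the 13 was 10.33 to 10.39 on the control arrays, 10.20 to 10.22 under diquat and 10.15 to 10.28 under paraquat. By limma 4 fell under diquat and 3 under paraquat, with none higher, where 2.89% and 2.24% of all genes were lower. The markers did not move as 1: in each comparison 10 estimates lay below 0 and 3 above. They ran from -0.75 to 0.10 under diquat and from -0.80 to 0.07 under paraquat. Most hepatocyte marker estimates thus lay below 0, as did those of 12729 of all 22180 genes under diquat and 11215 under paraquat. Most of these markers did not pass. Estimates of the isomerase and cochaperone genes also lay mostly below 0, with Sdf2l1 the only cochaperone past the test. The part of the markers in those changes was not tested. Mean levels per array were 5.95 to 6.08 for 6 macrophage markers and 5.60 to 5.77 for 6 endothelial markers. They were 6.57 to 6.75 for 7 stellate and fibroblast markers and 8.33 to 8.47 for 5 cholangiocyte markers. Ranges in control and treated arrays overlapped except for the cholangiocyte list under each compound. In the same order, means of single genes ran from 4.78 to 7.87, 5.29 to 6.23, 5.76 to 9.06 (Col1a1) and 6.84 to 10.48 (Sox9). Some stellate, fibroblast or cholangiocyte markers thus stood above some hepatocyte markers. Of the cholangiocyte markers 1 was higher in each comparison and 2 were lower under diquat. Of the macrophage markers Cd68 alone passed, higher under diquat (0.40), and it gave 0.35 under paraquat without passing. The part of these markers in the results was not tested. Ptprc, the marker of blood cells, stood at 5.32, below the array medians. Pearson correlations between arrays lay between 0.9952 and 0.9991. Diquat replicate 3 differed from its group mates by 0.134 (root mean square, log2) against 0.0714 to 0.115 for the other arrays. Over all genes diquat gave 917 higher and 641 lower, a split that became 1073 and 311 with arrays centred on their medians and 840 and 1019 with quantile normalization. Paraquat gave 517 higher and 497 lower, which became 447 and 366 with centring, 557 and 713 with quantile normalization and 392 and 479 without paraquat replicate 1.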

How the data were processed

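RNA of 9 TAMH samples (3 control, 3 diquat, 3 paraquat, by title) was hybridised to Affymetrix Mouse Gene 2.1 ST arrays. The deposited values are log2 levels that the authors made with Affymetrix Expression Console 1.1 and RMA, per the submitters' processing notes. RMA corrects background, normalizes by quantiles and summarizes probes, which can narrow differences at low levels. Its settings and the array's genome build were not given in the sources used here. Depth has no counterpart on arrays, and the number of arrays limits precision.

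Of 34472 features, 23521 carried 1 symbol, 1814 several and 9137 none, and the first gave 22180 genes. The log2 values were fitted in limma 3.58.1 (R 4.3.3, lmFit and eBayes), with 1 mean per group, all 9 arrays in 1 fit and no covariates. P-values were adjusted by Benjamini-Hochberg over 22180 genes, with a threshold of 0.05. Errors are limma's standard errors, or SDs where so named. Promoter windows and motifs came from RefSeq sequences.

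The members and lists were chosen with earlier results of these data known. Every measured member is named. From each further list the text names up to 3 genes with the largest change among those past the test, with Atf4, Ddit3, Ppp1r15a, Chac1 and Slc7a11 as fixed readouts. Cd68, Ptprc, Col1a1 and Sox9 were named after their values were seen. Alternatives numbered 19. The fit was tested on simulated data.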

Additional observations from a re-analysis of the deposited data

How the results depend on the processing

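No background level was estimated, so levels near the array medians cannot be separated from background. Leaving out 1 array moved the count of ER genes past the test from 8 to between 7 and 9 for diquat and from 7 to between 3 and 8 for paraquat. Over all genes these counts moved from 1558 to between 802 and 1908 and from 1014 to between 574 and 1197, and for paraquat against diquat from 0 to between 0 and 3. The test against a fold of 1.2 called 0 ER genes for diquat and 0 for paraquat, with 117 and 95 of all genes. Centring arrays on their medians gave 4 ER genes for paraquat, a diquat score of -0.03 in place of -0.07, and 1 gene between the compounds, while quantile normalization gave 4 there. Array weights gave 11 ER genes and 1623 genes in all for paraquat, and a fit of the 2 groups alone gave 959 genes for diquat. The causes of these movements were not tested. Some settings by themselves use fewer arrays or set a higher bar. Among the ER genes and the further genes named, no change that passed the test took the other sign under any of the 19 settings. Several of these settings leave the estimates themselves as they are, so the sign could not change there. Between the compounds 0 ER genes passed by limma under every setting, with 5 at an unadjusted p under 0.05 in the fit of all arrays.

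The sample titles number the replicates 1 to 3 in each group, but the descriptions of 4 arrays give 1 in place of 2 or 3. Same-numbered arrays correlated between -0.19 and 0.20 in their deviations from the group means, over 0.1 in 3 of 9 pairs, and 1 of 9 arrays was closest to its own number in both other groups. Between control and paraquat the same-numbered pairs gave 0.16, 0.13 and 0.09, and the others -0.12 to -0.02. Same-numbered pairs that include diquat went both ways. Such correlations, with 3 arrays a group, cannot settle whether same-numbered samples share more than a number. With the replicate number as a block, 8 ER genes passed for diquat, 6 for paraquat and 0 between the compounds.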
